A study of Mus musculus with 15 samples.

Results

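The 10 genes described here encode 9 integrin subunits and the adhesion ligand ICAM1, and they were taken as a list of gene names: Itgam, Itgax, Itgal, Itgav, Itga4, Itga5, Itgb1, Itgb2, Itgb3 and Icam1. All 10 were found among the 51763 Ensembl identifiers of the count table, and all 10 passed the filter on low counts, which left 16919 genes for testing. The study asked how 2 redox forms of HMGB1, a nuclear protein that acts as an alarm signal outside the cell, change mouse bone marrow-derived macrophages (BMDMs) in comparison with bacterial lipopolysaccharide (LPS) alone or with interferon-γ (LPS/IFNγ). RNA was sequenced from 15 libraries, 3 per condition, after 24 h with PBS (the control), with 5 µg/mL of HMGB1 in its fully reduced form (frHMGB1) or its disulfide form (dsHMGB1), with 1000 ng/mL LPS, or with LPS and 20 ng/mL IFNγ. The cells came from wild-type female C57BL/6NTac mice of 8 to 10 weeks and had matured in M-CSF (10 ng/mL), the growth factor of the macrophage lineage, which every condition including PBS therefore shared. They had been lifted from the flask with trypsin and rested overnight in medium with little serum. For LPS/IFNγ, the LPS dose is 1000 ng/mL in the treatment label and 100 ng/mL in the protocol text, so the comparison of LPS/IFNγ with LPS may hold a difference in dose as well as IFNγ. BMDMs of 5 mice were pooled before seeding, so the libraries of a condition are technical replicates of a single pool, and errors and p-values speak of cultures and libraries, not of mice.

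Integrins are receptors made of an α and a β chain, and a chain reaches the cell surface only with a partner. On macrophages, the β2 chain (Itgb2, CD18) pairs with αL (Itgal, the α chain of LFA-1), αM (Itgam, CD11b of Mac-1) or αX (Itgax, CD11c), and ICAM1 is the classical ligand of LFA-1 and Mac-1. The β1 chain (Itgb1) pairs among others with α4 (Itga4), which binds VCAM1 and fibronectin, and with α5 (Itga5), the main fibronectin receptor, while αV (Itgav) pairs with β3 (Itgb3) and other β chains and binds vitronectin, osteopontin and other proteins with an RGD motif.

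On GRCm38, as annotated by GENCODE M21, the genes of the 3 β2 partner chains lie on chromosome 7, Itgam and Itgax close together and Itgal further away (Itgal at chr7:127296260-127335138, Itgam at chr7:128062640-128118491 and Itgax at chr7:128129547-128150657, all on the plus strand). Icam1 lies at chr9:21015985-21028817 on the plus strand, Itga5 at chr15:103344286-103366763 on the minus strand, Itga4 at chr2:79255426-79333123 and Itgav at chr2:83724397-83806916, both on the plus strand. Itgb1 lies at chr8:128685654-128733200, Itgb2 at chr10:77530252-77565708 and Itgb3 at chr11:104608000-104670476, all on the plus strand. Counts cover whole genes, so no exon or isoform is told apart. Some exons overlap other annotated genes, most of all in Itgam, where 3450 of 5024 exonic bases lie on the same strand in Gm49368, a gene with 32 counts over all libraries.

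The upstream 250 bases of 3 genes are shown because they stand for 3 patterns described below: Icam1 had the highest fold change of the 10 genes, Itga5 rose in steps that the test separated at every stimulation but frHMGB1, and Itgam was called by edgeR in no comparison with all 15 libraries. Sequences are from RefSeq on GRCm38.p6, 5′ to 3′ on the strand of the gene, at chr9:21015690-21015939 (plus), chr15:103366792-103367041 (minus) and chr7:128062390-128062639 (plus). Capitals mark matches to any of the 5 motifs searched.
Icam1: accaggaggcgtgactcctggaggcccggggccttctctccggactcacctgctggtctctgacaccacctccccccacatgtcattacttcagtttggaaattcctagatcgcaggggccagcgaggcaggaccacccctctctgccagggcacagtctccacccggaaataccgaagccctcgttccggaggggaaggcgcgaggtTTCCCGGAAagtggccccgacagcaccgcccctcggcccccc
Itga5: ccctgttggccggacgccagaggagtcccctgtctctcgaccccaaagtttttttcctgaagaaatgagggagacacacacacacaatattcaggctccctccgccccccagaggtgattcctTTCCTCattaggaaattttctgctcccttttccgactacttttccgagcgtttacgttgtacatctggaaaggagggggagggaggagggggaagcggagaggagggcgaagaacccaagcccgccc
Itgam: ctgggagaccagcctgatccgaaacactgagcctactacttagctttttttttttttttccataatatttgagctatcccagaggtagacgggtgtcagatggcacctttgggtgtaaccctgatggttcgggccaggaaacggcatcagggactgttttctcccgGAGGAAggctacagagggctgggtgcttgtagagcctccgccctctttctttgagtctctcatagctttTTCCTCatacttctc

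The motifs searched on both strands were the core of PU.1 sites (GAGGAA), AP-1 (TGANTCA), the interferon-γ activated site GAS (TTCNNNGAA), a part of the interferon-stimulated response element (GAAANNGAA) and NF-kB by name. The promoter table held 7 of the 10 genes, without Itgal, Itgb2 and Itgb3. Icam1 had a GAS match at positions -42 to -34 from the start, Itga5 a PU.1 core at -127 to -122, and Itgam a PU.1 core at -84 to -79 and another at -15 to -10. A PU.1 core was found in 4 of the 7 promoters, against 23.3% of all 32851 promoters of the table. GAS was found in 1 of 7 (7.02% of all), AP-1 in 1 of 7, in Itgax at -56 to -50 (6.75%), the interferon element in 1 of 7, in Itgav (7.13%), and NF-kB in 0 of 7 (7.25%). The NF-kB pattern was strict, as it had to open with GGG. TGGAAATTCC in the Icam1 window differs from the pattern in its first letter alone and was not counted. The Itga4 window held no match. These matches are letters in a window, and no binding was measured.

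Total counts ranged from 40934540 to 80925478 per library. The Pearson correlation of PBS replicate 3 with the other PBS libraries was 0.934 and 0.939 across genes on the log2 scale of CPM (counts relative to the library's total), while the other pairs of replicates lay between 0.987 and 0.993. Among 10102 protein-coding genes, the median log2 difference of PBS replicate 3 from the other PBS libraries was 0.89 in the fifth of genes with the shortest exons and of -0.92 in the fifth with the longest. dsHMGB1 replicate 1 showed the same slope in a smaller size, from 0.22 to -0.26, and dsHMGB1 replicate 2 the opposite, from -0.19 to 0.20. Among the 10 genes, PBS replicate 3 held 32.1% to 38.6% of the normalized count of the other PBS libraries for Itgav, Itga4, Icam1 and Itgal, 54.3% to 76.8% for Itgb2, Itgb1 and Itgax, and 95.2% to 109% for Itga5, Itgb3 and Itgam. What length has to do with these values was not tested. Results were also computed without this library for the 10 genes and for calls in the gene lists other than marker lists. There, a call, a direction or a count that changed by over 1.5 times is given both ways. Calls in marker lists and values of other named genes are given with all libraries alone.

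**Figure D1:**
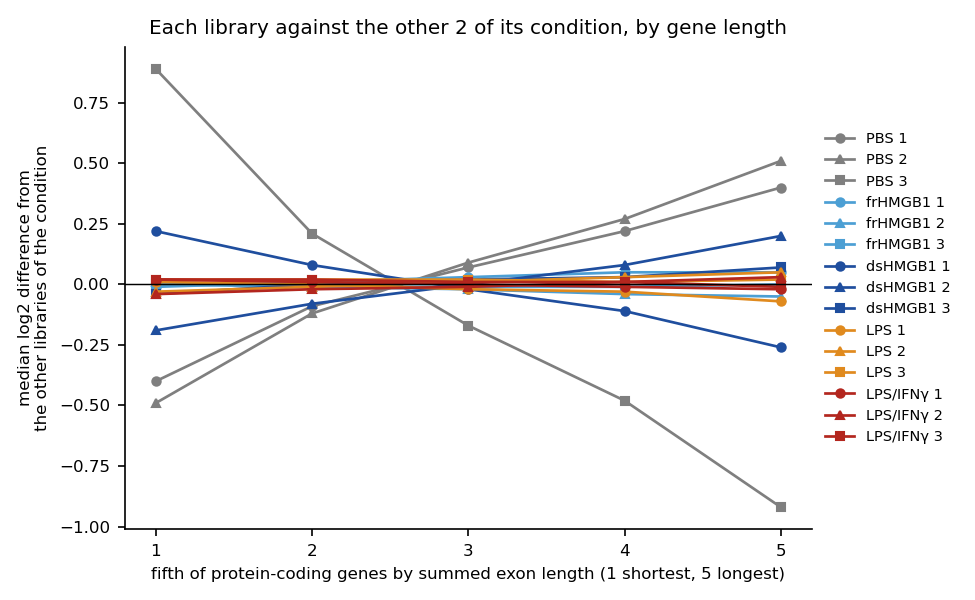
Median log2 difference (y axis) of each of the 15 libraries from the other libraries of its condition, in 5 groups of protein-coding genes ordered by summed exon length (x axis, 1 shortest to 5 longest); colours are conditions and symbols replicates. PBS replicate 3 runs from 0.89 down to -0.92, dsHMGB1 replicates 1 and 2 slope in opposite directions between -0.26 and 0.22, and the frHMGB1, LPS and LPS/IFNγ libraries stay within 0.07 of zero.

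The macrophage label was checked against 10 marker genes, which were all expressed (for example Adgre1, Csf1r, Cd68 and Lyz2) and together made up 15410 to 29609 CPM. Their sum, of which Lyz2 was the largest part, was highest in frHMGB1 (29122 to 29609) and lowest in LPS/IFNγ (15410 to 15807), and between 24937 and 28030 in PBS. Taken gene by gene, 5 of the 10 rose and 2 fell in LPS/IFNγ against PBS by edgeR, with a median log2 fold change of 0.67. Of all tested genes, 29.0% rose and 31.2% fell in that comparison. The neutrophil list summed to 2.01 to 5.65 CPM with Ly6g at 0 in every library, and the dendritic cell list to 4.42 to 17.5 CPM with 6 counts of Flt3 in all. Other genes of these lists held more counts, with S100a8 at condition means of 87 to 309 normalized counts. Of 7 dendritic cell genes tested, 3 rose and 2 fell in LPS/IFNγ against PBS, beside the same 29.0% and 31.2% of all genes. Xcr1 went from a mean of 81 in PBS to 481 in LPS/IFNγ, and Clec9a from 117 to 67. Cd3e, Cd3d and Cd3g, which define T cells, were at 0, although the T and NK cell list summed to 187 to 200 CPM in LPS/IFNγ against 16.2 to 36.2 in PBS, where Lck alone went from a mean of 14 to 12842 normalized counts. The B cell, mast cell, platelet and endothelial lists stayed at or below 156 CPM, with Igll1, Fcer1a and Gp1bb at 0, and the fibroblast list at 125 to 294 CPM. Other genes of the first of these lists were expressed. Ighm had a mean of 1823 normalized counts in PBS and 463 in LPS, and Vwf one of 5663 in PBS. Hdc went from 1 in PBS to 8268 in LPS, and Kdr from 1001 in PBS to 7407 in LPS/IFNγ. Of 9 fibroblast genes tested, 2, 6 and 5 rose and 0 fell in dsHMGB1, LPS and LPS/IFNγ against PBS. Beside them, 23.3%, 26.7% and 29.0% of all tested genes rose and 24.2%, 36.2% and 31.2% fell. Col1a1 had a mean of 4657 normalized counts in PBS and 7815 in LPS/IFNγ. The osteoclast list, led by Atp6v0d2, summed to 1388 to 1818 CPM in PBS and 1461 to 1541 in frHMGB1, and to 733 to 771 in dsHMGB1, 673 to 704 in LPS and 834 to 861 in LPS/IFNγ. The part of other cells in the results below was not tested beyond these values.

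Against PBS, dsHMGB1, LPS and LPS/IFNγ gave the same calls among the 10 genes. Itgal, Itgav, Itga4, Itga5, Itgb1 and Icam1 rose, Itgb3 fell, and Itgam, Itgax and Itgb2 did not pass the test of edgeR (quasi-likelihood F test, Benjamini-Hochberg adjusted p under 0.05 over all tested genes). The 6 genes of 10 that rose stand beside 23.3% of all tested genes called higher with dsHMGB1, 26.7% with LPS and 29.0% with LPS/IFNγ, and the 1 gene that fell beside 24.2%, 36.2% and 31.2% called lower. In frHMGB1, 1 of 10 rose, Icam1, and 0 fell, against 1.31% of all genes higher and 5.69% lower. The median log2 fold change of the 10 genes was 0.13 for frHMGB1 (-0.01 over all tested genes), 1.27 for dsHMGB1 (-0.10), 1.72 for LPS (-0.21) and 2.10 for LPS/IFNγ (-0.13). All 4 comparisons share the PBS libraries. In bulk RNA, a lower share of cells with a transcript and less transcript in each cell cannot be told apart, and this holds for every value here.

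**Figure D2:**
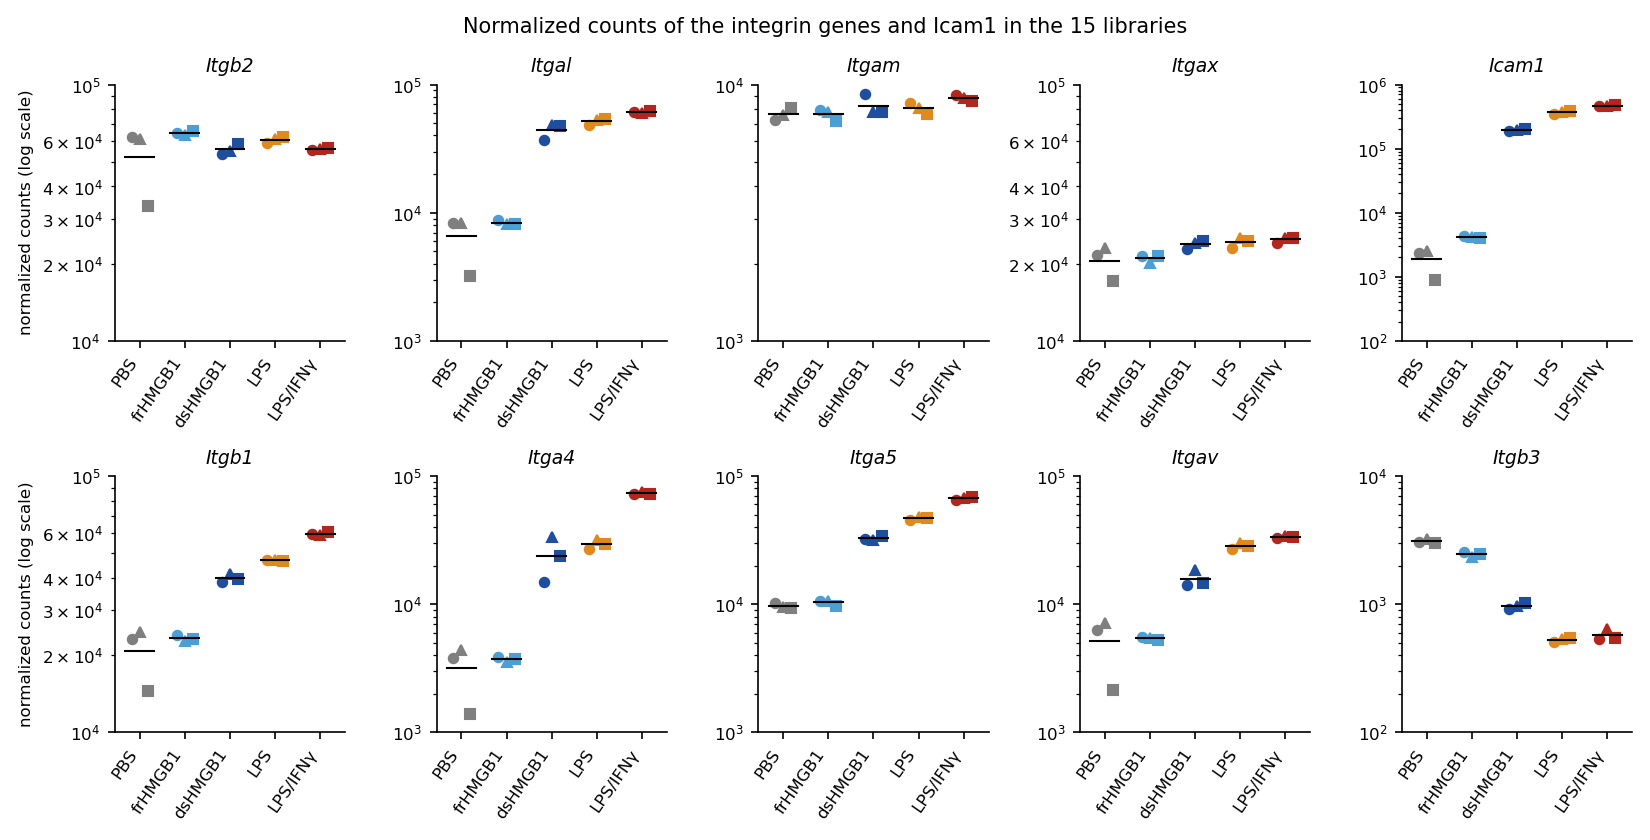
Normalized counts (y axis, log scale, range set for each gene) of the 10 genes in each of the 15 libraries by condition (x axis); circles, triangles and squares are replicates 1, 2 and 3, and lines are means of 3. Icam1 spans from 876 to 476078, Itgb3 is lower in dsHMGB1, LPS and LPS/IFNγ than in PBS, Itgam stays between 7195 and 9166, and PBS replicate 3 is the low square in several panels.

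Icam1, the endothelial and leukocyte ligand of the β2 integrins, had 2328, 2478 and 876 normalized counts in PBS replicates 1, 2 and 3 and 4331, 4095 and 3964 in frHMGB1. It had 187371, 192104 and 199406 in dsHMGB1, 349883, 375978 and 389503 in LPS, and 462424, 459671 and 476078 in LPS/IFNγ. No 2 of the 5 conditions overlapped, and the LPS/IFNγ libraries were above all others. The mean was 102-fold that of PBS with dsHMGB1 (log2 fold change 6.67 ± 0.28 SE, n = 3 per condition, edgeR adjusted p = 3.32e-09), 196-fold with LPS (7.62 ± 0.28, adjusted p = 7.74e-10) and 246-fold with LPS/IFNγ (7.94 ± 0.28, adjusted p = 5.43e-10). In frHMGB1 it was 2.18-fold higher (1.12 ± 0.28, adjusted p = 0.0254), a call that was lost without any single frHMGB1 library (adjusted p 0.0633 to 0.0819), over protein-coding genes alone (0.139) and when frHMGB1 and PBS were fitted alone (0.401). When PBS replicate 3 was left out, the edgeR log2 fold change was 0.78 for frHMGB1 (adjusted p = 3.85e-08), 6.29 for dsHMGB1, 7.21 for LPS and 7.53 for LPS/IFNγ.

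Levels of different genes were set side by side only per kilobase of summed exon length. On that scale Icam1 had a mean level of 435 ± 203 normalized counts per kilobase (SD, n = 3) in PBS, below all 3 α chains of its receptors, Itgal (1009 ± 450), Itgam (1525 ± 83.0) and Itgax (4282 ± 641), and below the β chain Itgb2 (17110 ± 5330). In LPS/IFNγ its level per kilobase was 106894 ± 2015, above Itgb2 (18368 ± 146), Itgal (9281 ± 166), Itgax (5177 ± 138) and Itgam (1767 ± 48.3). Its mean level per kilobase was the next to lowest of the 10 genes in PBS, and the highest in LPS/IFNγ. Without PBS replicate 3 its PBS mean was 551 per kilobase, above Itgb3 at 530 and Itga4 at 293.

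Among Itgb2 and its 3 partner chains, only Itgal was called against PBS by edgeR with all 15 libraries. Its normalized counts were 8323, 8349 and 3220 in PBS, 8836, 8120 and 8166 in frHMGB1 and 36850, 48432 and 47463 in dsHMGB1. In LPS they were 47903, 52977 and 54088, and in LPS/IFNγ 61265, 59754 and 61877. dsHMGB1 and LPS overlapped, LPS/IFNγ lay above both, and all 3 lay above PBS and frHMGB1. Over PBS, the log2 fold change came to 2.74 ± 0.27 with dsHMGB1 (edgeR adjusted p = 4.34e-06), 2.96 ± 0.27 with LPS (adjusted p = 1.55e-06) and 3.20 ± 0.27 with LPS/IFNγ (adjusted p = 6.49e-07), or to 2.37, 2.57 and 2.80 in edgeR without PBS replicate 3. In frHMGB1 it was 0.34 ± 0.27 (adjusted p = 0.596), and 0.00 without that library.

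Itgam, whose protein CD11b is used to mark myeloid cells, had 7299, 7571 and 8117 normalized counts in PBS, 7964, 7800 and 7195 in frHMGB1, 9166, 7820 and 7821 in dsHMGB1, 8450, 8062 and 7673 in LPS and 9138, 8843 and 8657 in LPS/IFNγ. PBS, frHMGB1, dsHMGB1 and LPS overlapped, and the LPS/IFNγ libraries lay above all PBS libraries. The 95% intervals of its log2 fold change over PBS were -0.06 to 0.28 in dsHMGB1, -0.10 to 0.25 in LPS and 0.04 to 0.39 in LPS/IFNγ, with edgeR adjusted p of 0.342, 0.894 and 0.0728. The change in LPS/IFNγ passed in DESeq2 with all 15 libraries (log2 fold change 0.21 ± 0.09, adjusted p = 0.0325) and in edgeR without PBS replicate 3, at 0.19 (adjusted p = 0.0365).

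Itgax, whose protein CD11c marks dendritic cells and many tissue macrophages, had 21555, 23028 and 17118 normalized counts in PBS, 21407, 20196 and 21393 in frHMGB1, 22877, 24023 and 24592 in dsHMGB1, 22929, 25248 and 24454 in LPS and 24100, 25228 and 25260 in LPS/IFNγ. The LPS/IFNγ libraries lay above all PBS libraries, while dsHMGB1 and LPS overlapped PBS. Its log2 fold changes over PBS of 0.21 ± 0.11, 0.23 ± 0.11 and 0.27 ± 0.11 in dsHMGB1, LPS and LPS/IFNγ did not pass (edgeR adjusted p = 0.173, 0.22 and 0.0845), and were 0.06, 0.06 and 0.09 without PBS replicate 3. The change in LPS/IFNγ passed in DESeq2 (adjusted p = 0.0227), in edgeR with RLE normalization (0.0308) or over protein-coding genes alone (0.0432), and without PBS replicate 2 (0.0202), where the change in dsHMGB1 passed too (0.0451).

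The shared β chain Itgb2 had 62134, 61080 and 33445 normalized counts in PBS, 64905, 63773 and 65696 in frHMGB1, 53742, 55035 and 58602 in dsHMGB1, 58897, 61232 and 62369 in LPS and 55597, 56096 and 56483 in LPS/IFNγ. PBS replicate 3 was the lowest of all 15 libraries, and the other PBS libraries were above every dsHMGB1 and LPS/IFNγ library. With that library, no comparison passed (log2 fold change over PBS 0.10 ± 0.19 with dsHMGB1, 0.22 ± 0.19 with LPS and 0.10 ± 0.19 with LPS/IFNγ). Without it, the direction turned and Itgb2 fell by edgeR's test (log2 -0.18 for dsHMGB1, adjusted p = 0.005, and -0.21 for LPS/IFNγ, adjusted p = 0.0012), while LPS was at -0.08 (adjusted p = 0.176).

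With 1 β2 partner chain rising and the others near their PBS level, the composition of the α chain transcripts shifted. Itgal made up 14.2% ± 4.90 (SD, n = 3) of the summed per-kilobase level of Itgal, Itgam, Itgax and Itgad in PBS and 17.6% ± 0.414 in frHMGB1, and 50.1% ± 3.73 with dsHMGB1, 54.0% ± 1.20 with LPS and 57.0% ± 0.653 with LPS/IFNγ. Every dsHMGB1, LPS and LPS/IFNγ library (45.8% to 57.5%) lay above every PBS and frHMGB1 library (8.60% to 18.1%). Itgax went from 62.4% ± 0.535 in PBS to 37.1% ± 1.62 in dsHMGB1 and 31.8% ± 0.789 in LPS/IFNγ, and Itgam from 22.7% ± 4.88 to 12.4% ± 2.18 and 10.9% ± 0.373. Itgad, the α chain αD, stayed at or below 0.823% in every library. The level of Itgb2 per kilobase was 2.45 ± 0.466 times the summed α chains in PBS and 2.94 ± 0.0697 times in frHMGB1, against 1.37 ± 0.0750 with dsHMGB1, 1.37 ± 0.0301 with LPS and 1.13 ± 0.00752 with LPS/IFNγ. The level of Itgam was divided by its full exon length, although 3450 of its 5024 exonic bases also lie in Gm49368. Whether reads in these bases were counted for Itgam is not given, so its share could be too low and that of Itgax too high. These shares are of transcripts, and surface protein was not measured here.

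**Figure D3:**
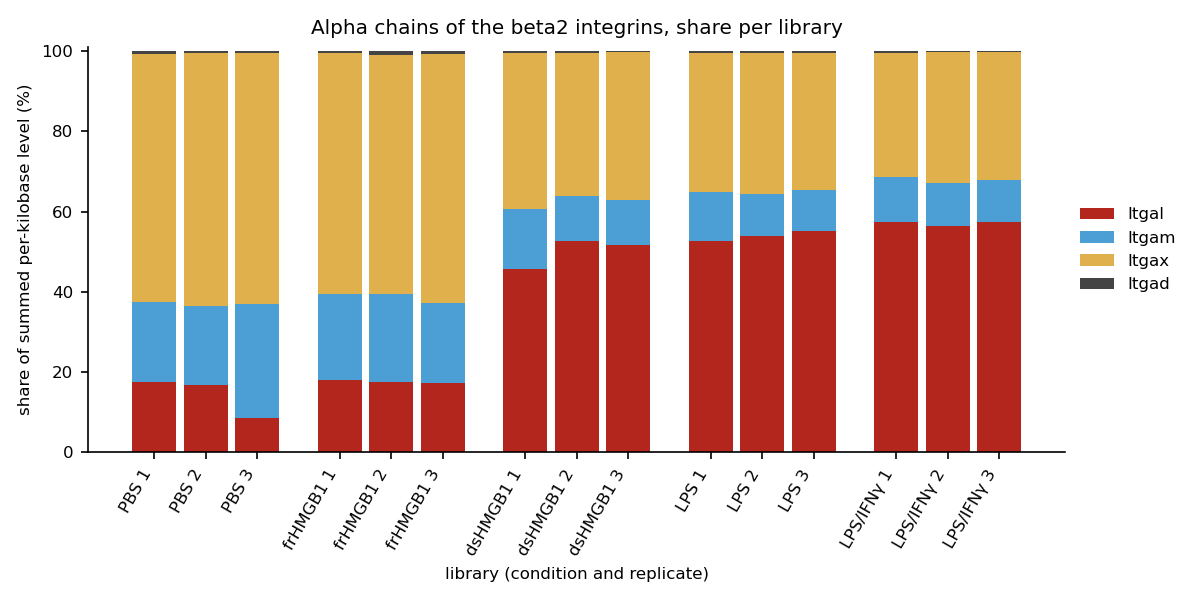
Share of Itgal, Itgam, Itgax and Itgad (stacked, y axis, percent of their summed normalized counts per kilobase) in each of the 15 libraries (x axis). Itgal fills 8.60% to 18.1% of the bar in PBS and frHMGB1 libraries and 45.8% to 57.5% in dsHMGB1, LPS and LPS/IFNγ libraries, and Itgax takes the largest share in PBS and frHMGB1.

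The β1 chain Itgb1 and its partners Itga4 and Itga5 all rose in dsHMGB1, LPS and LPS/IFNγ. Itga5 had 10282, 9477 and 9405 normalized counts in PBS, 10601, 10609 and 9716 in frHMGB1, 32173, 31933 and 34097 in dsHMGB1, 45168, 47446 and 47268 in LPS and 65550, 67719 and 69038 in LPS/IFNγ. PBS and frHMGB1 overlapped, and the 3 other conditions formed separate steps. Its rises over PBS with dsHMGB1, LPS and LPS/IFNγ were 1.75 ± 0.07 (edgeR adjusted p = 1.2e-09), 2.26 ± 0.07 (adjusted p = 7.94e-11) and 2.79 ± 0.07 (adjusted p = 1.02e-11), on the log2 scale, with the smallest standard errors of the 10 genes, and its change in frHMGB1 was 0.08 ± 0.07 (adjusted p = 0.591).

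Itga4 had 3792, 4402 and 1402 normalized counts in PBS, 3894, 3507 and 3736 in frHMGB1 and 14821, 33445 and 23610 in dsHMGB1. In LPS it had 26920, 31537 and 29405, and in LPS/IFNγ 71984, 74685 and 72798. Among the 10 genes, the dsHMGB1 libraries of Itga4 had the widest spread outside PBS (coefficient of variation 38.9%), replicate 1 being at 52.0% of the mean of the other dsHMGB1 libraries, and they straddled the LPS libraries, while LPS/IFNγ lay above all. Compared with PBS it rose by 2.90 ± 0.34 with dsHMGB1 (edgeR adjusted p = 2.66e-05), by 3.19 ± 0.34 with LPS (adjusted p = 8.43e-06) and by 4.52 ± 0.34 with LPS/IFNγ (adjusted p = 4.06e-07) on the log2 scale. Leaving out PBS replicate 3 made these 2.51, 2.78 and 4.09 in edgeR, all called.

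Itgb1 had 23043, 24564 and 14505 normalized counts in PBS, 23988, 22671 and 23078 in frHMGB1, 38529, 41327 and 39623 in dsHMGB1, 46971, 46854 and 46653 in LPS and 59401, 59082 and 60324 in LPS/IFNγ. The 3 stimulated conditions did not overlap with each other or with PBS and frHMGB1. The rise over PBS was 1.92-fold with dsHMGB1 (log2 fold change 0.94 ± 0.16, edgeR adjusted p = 0.000389), 2.26-fold with LPS (1.18 ± 0.16, adjusted p = 5.54e-05) and 2.88-fold with LPS/IFNγ (1.53 ± 0.16, adjusted p = 3.4e-06), or 0.71, 0.92 and 1.25 on the edgeR log2 scale without PBS replicate 3. Per kilobase, Itgb1 was 2.29 ± 0.470 times the sum of Itga4 and Itga5 in PBS and 2.42 ± 0.107 times in frHMGB1, and 1.17 ± 0.0636, 0.995 ± 0.0385 and 0.773 ± 0.0154 times in dsHMGB1, LPS and LPS/IFNγ, since the α chains rose by more than the β chain. In PBS replicates 1, 2 and 3 this ratio was 2.4, 2.69 and 1.77.

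Itgav and Itgb3, which together form the vitronectin receptor, moved in opposite directions. Itgav had 6333, 7071 and 2149 normalized counts in PBS, 5527, 5436 and 5271 in frHMGB1, 14033, 18376 and 14730 in dsHMGB1, 26977, 29916 and 28192 in LPS and 32718, 33890 and 33204 in LPS/IFNγ. The 3 stimulated conditions were in separate ranges above PBS and frHMGB1. It rose over PBS by a log2 fold change of 1.60 ± 0.31 with dsHMGB1 (edgeR adjusted p = 0.00118), 2.45 ± 0.31 with LPS (adjusted p = 2.99e-05) and 2.68 ± 0.31 with LPS/IFNγ (adjusted p = 1.15e-05), or 1.20, 2.02 and 2.24 in edgeR without PBS replicate 3.

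Itgb3, which is also the β chain of the platelet fibrinogen receptor, had 3040, 3211 and 3000 normalized counts in PBS, 2531, 2329 and 2471 in frHMGB1, 919, 974 and 1026 in dsHMGB1, 503, 533 and 547 in LPS and 537, 640 and 548 in LPS/IFNγ. The ranges of PBS, frHMGB1 and dsHMGB1 were separate in falling order, and LPS and LPS/IFNγ overlapped at the bottom. Its log2 fold changes against PBS were -1.66 ± 0.09 with dsHMGB1 (edgeR adjusted p = 1.28e-08), -2.55 ± 0.10 with LPS (adjusted p = 1.18e-10) and -2.42 ± 0.09 with LPS/IFNγ (adjusted p = 1.9e-10). The platelet and megakaryocyte list summed to 88.5 to 156 CPM in PBS and 38.5 to 60.4 CPM in dsHMGB1, LPS and LPS/IFNγ, with Gp1bb at 0 in every library, 5 counts of Ppbp in all and a mean of 23 normalized counts of Itga2b, the platelet partner of Itgb3, in PBS. Of its 10 genes, 5 passed the filter, and 4, 4 and 5 of them fell in dsHMGB1, LPS and LPS/IFNγ (list medians -1.44, -1.80 and -2.73), among them Vwf, from a mean of 5663 normalized counts in PBS to 2786 in LPS/IFNγ. The osteoclast list, whose cells carry much αVβ3, had 7 genes past the filter, of which 2, 3 and 3 fell and 3, 2 and 3 rose, while its summed CPM, given above, was lower in these 3 conditions than in PBS. Beside the counts of both lists, 24.2%, 36.2% and 31.2% of all tested genes fell and 23.3%, 26.7% and 29.0% rose. The part of platelets, megakaryocytes and osteoclasts in the fall of Itgb3 was not tested. Per kilobase, Itgav was 0.916 ± 0.453 times Itgb3 in PBS and 1.22 ± 0.0575 times in frHMGB1, and 8.88 ± 1.31, 29.5 ± 1.25 and 31.9 ± 2.46 times in dsHMGB1, LPS and LPS/IFNγ. In PBS replicates 1, 2 and 3 this ratio was 1.14, 1.21 and 0.394.

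**Figure D4:**
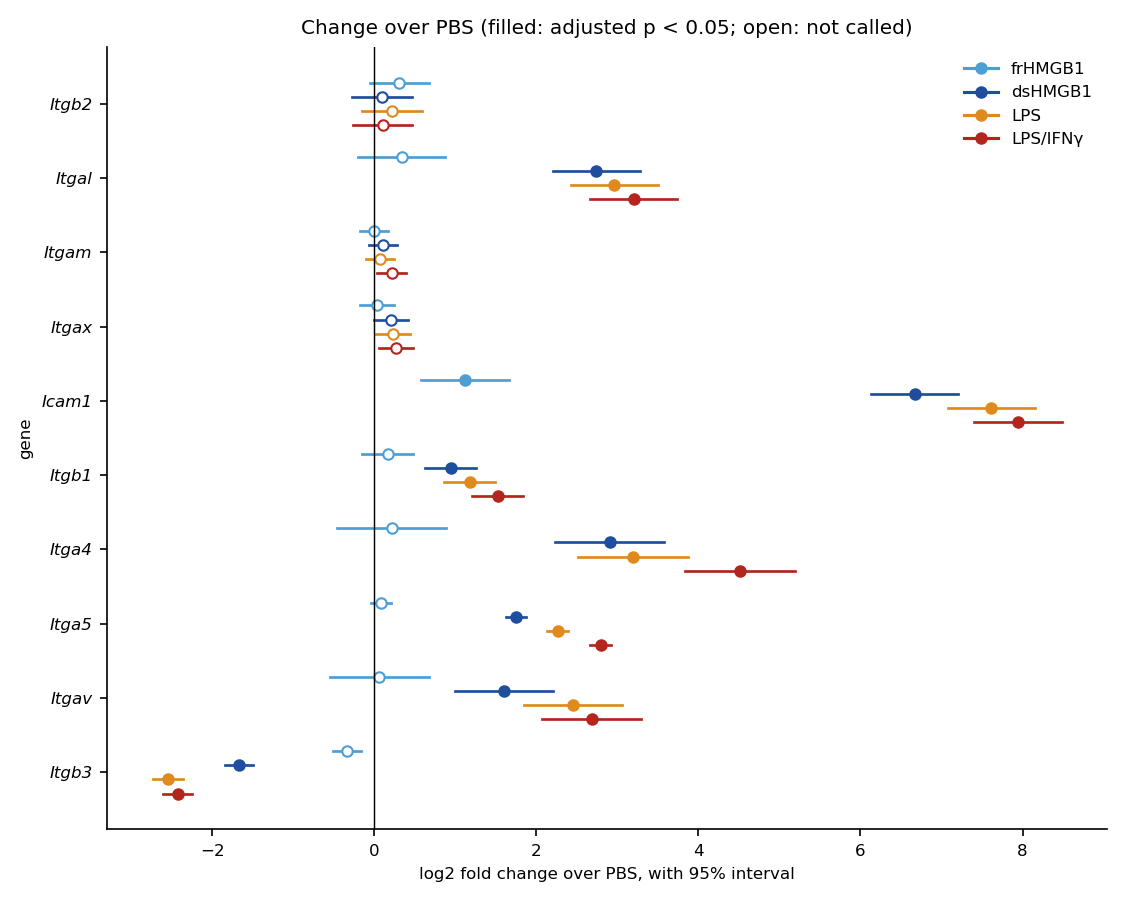
DESeq2 log2 fold change over PBS (x axis) of each of the 10 genes (y axis) in frHMGB1, dsHMGB1, LPS and LPS/IFNγ; lines are 95% intervals, filled points passed edgeR's test at an adjusted p under 0.05 and open points did not. Icam1 lies at 6.67 to 7.94 in the last 3 stimulations and at 1.12 in frHMGB1, Itgb3 is left of zero, and Itgb2, Itgam and Itgax lie within 0.32 of zero.

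In the order of means, Icam1, Itgal, Itgav, Itga4, Itga5, Itgb1 and Itgax shared one sequence of conditions, with LPS/IFNγ highest, then LPS, dsHMGB1, frHMGB1 and PBS. Itgam went from LPS/IFNγ over dsHMGB1, LPS and PBS to frHMGB1, Itgb2 from frHMGB1 over LPS, LPS/IFNγ and dsHMGB1 to PBS, and Itgb3 from PBS over frHMGB1, dsHMGB1 and LPS/IFNγ to LPS. In the order shared by 7 genes, the step from dsHMGB1 to frHMGB1 passed edgeR's test for all of them but Itgax, that from LPS/IFNγ to LPS for Itga4 and Itga5, that from LPS to dsHMGB1 for Itga5 and Icam1, and that from frHMGB1 to PBS for Icam1. For Itgb3, frHMGB1 differed from dsHMGB1 and dsHMGB1 from LPS/IFNγ, the step from PBS to frHMGB1 had separate ranges but missed edgeR's threshold, and LPS/IFNγ and LPS overlapped. No tested step of Itgam, Itgax or Itgb2 passed, and frHMGB1 was not tested against LPS or LPS/IFNγ. With PBS replicate 3 left out, 4 of the 10 genes kept their order.

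The redox forms were compared by dsHMGB1 against frHMGB1, which were given at the same dose for the same time. By the paper, frHMGB1 was made in buffers with the reductant DTT, while dsHMGB1 came from another laboratory and was made without it. Redox form therefore cannot be told apart from preparation and source here. Of the 10 genes, 6 were higher in dsHMGB1 (27.7% of all tested genes) and 1 was lower (23.1%). Icam1 was 46.7-fold higher (log2 fold change 5.55 ± 0.28, edgeR adjusted p = 1.36e-08), Itga4 2.69 ± 0.34, Itgal 2.40 ± 0.27, Itga5 1.67 ± 0.07, Itgav 1.54 ± 0.31 and Itgb1 0.78 ± 0.16 on the same log2 scale, with adjusted p from 2.4e-09 for Itga5 to 0.0017 for Itgb1, and Itgb3 -1.33 ± 0.09 (adjusted p = 1.04e-07). For the genes that did not pass, the 95% interval of the log2 difference was -0.06 to 0.28 for Itgam, -0.03 to 0.39 for Itgax and -0.58 to 0.15 for Itgb2. PBS libraries enter this comparison only through the shared estimate of spread and the scaling. In a fit without PBS replicate 3, Itgax was called higher (0.15, adjusted p = 0.0131) and Itgb2 lower (-0.24, adjusted p = 9.89e-05) as well.

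For frHMGB1 against PBS, Itgb3 lay below every PBS library in all 3 frHMGB1 libraries, at a log2 fold change of -0.34 ± 0.09 (95% interval -0.51 to -0.17) that missed the threshold in edgeR (adjusted p = 0.0766) and passed it in DESeq2 (0.0023) and in edgeR with RLE normalization (0.0464) or a filter of 1 CPM in 3 libraries (0.0291). Without PBS replicate 3, 3 genes were called, with Icam1 higher and Itgb3 (-0.36, adjusted p = 0.00335) and Itgav (-0.31, adjusted p = 0.022) lower, while the share of all tested genes called rose to 8.41% higher and 9.09% lower.

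dsHMGB1 differed from LPS in 3 of the 10 genes. Itga5 was lower in dsHMGB1 (log2 fold change -0.51 ± 0.06, edgeR adjusted p = 0.000997), Icam1 was lower (-0.95 ± 0.28, adjusted p = 0.0296) and Itgb3 was higher (0.88 ± 0.10, adjusted p = 1.85e-05), against 15.8% of all tested genes higher and 10.6% lower. Icam1 did not overlap between these conditions, with 199406 as the highest dsHMGB1 and 349883 as the lowest LPS library, but its adjusted p was 0.0527 to 0.0816 when any of these 6 libraries was left out. Itgav at -0.85 ± 0.31 missed the threshold in edgeR (adjusted p = 0.0803) and passed it in DESeq2 (0.0262) and when dsHMGB1 and LPS were fitted alone (8.36e-05). Itga4 at -0.29 ± 0.34 did not pass (edgeR adjusted p = 0.685), and was at -0.01 in edgeR without dsHMGB1 replicate 1. After leaving out PBS replicate 3, 6 of 10 were called, Itgal, Itgav, Itga5, Itgb1 and Icam1 lower and Itgb3 higher, when 25.6% of all genes were higher and 23.3% lower.

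Against LPS/IFNγ, dsHMGB1 was lower in Itga4 (log2 fold change -1.61 ± 0.34, edgeR adjusted p = 0.00337), Icam1 (-1.27 ± 0.28, adjusted p = 0.0033), Itgav (-1.08 ± 0.31, adjusted p = 0.0185), Itga5 (-1.04 ± 0.06, adjusted p = 5.58e-07) and Itgb1 (-0.58 ± 0.16, adjusted p = 0.0157) and higher in Itgb3 (0.76 ± 0.09, adjusted p = 4.41e-05). Itgal was called lower as well without PBS replicate 3. The 5 lower and 1 higher genes of 10 with all libraries stand beside 16.7% of all tested genes lower and 16.5% higher. All 6 genes had separate ranges in the 2 conditions. Itgav and Itgb1 each lost their call without any of 3 single libraries (adjusted p 0.0523 to 0.0752).

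LPS/IFNγ was above LPS in 2 of the 10 genes, Itga4 (log2 fold change 1.32 ± 0.34, edgeR adjusted p = 0.0117) and Itga5 (0.53 ± 0.06, adjusted p = 0.000171), and below it in 0, against 16.3% of all tested genes higher and 9.36% lower. The mean of Itga4 was 2.50-fold that in LPS, the highest ratio of the 10 genes. It lost its call without LPS replicate 1 (adjusted p = 0.0565). For Icam1 the difference of 0.33 had a 95% interval of -0.21 to 0.87, and for Itgb3 the difference of 0.12 one of -0.07 to 0.32. Without PBS replicate 3, whose spread enters the estimate for every comparison, 7 genes were called, Itgal, Itgav, Itga4, Itga5, Itgb1 and Icam1 higher and Itgb2 lower, with 25.1% of all genes higher and 24.3% lower.

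**Figure D5:**
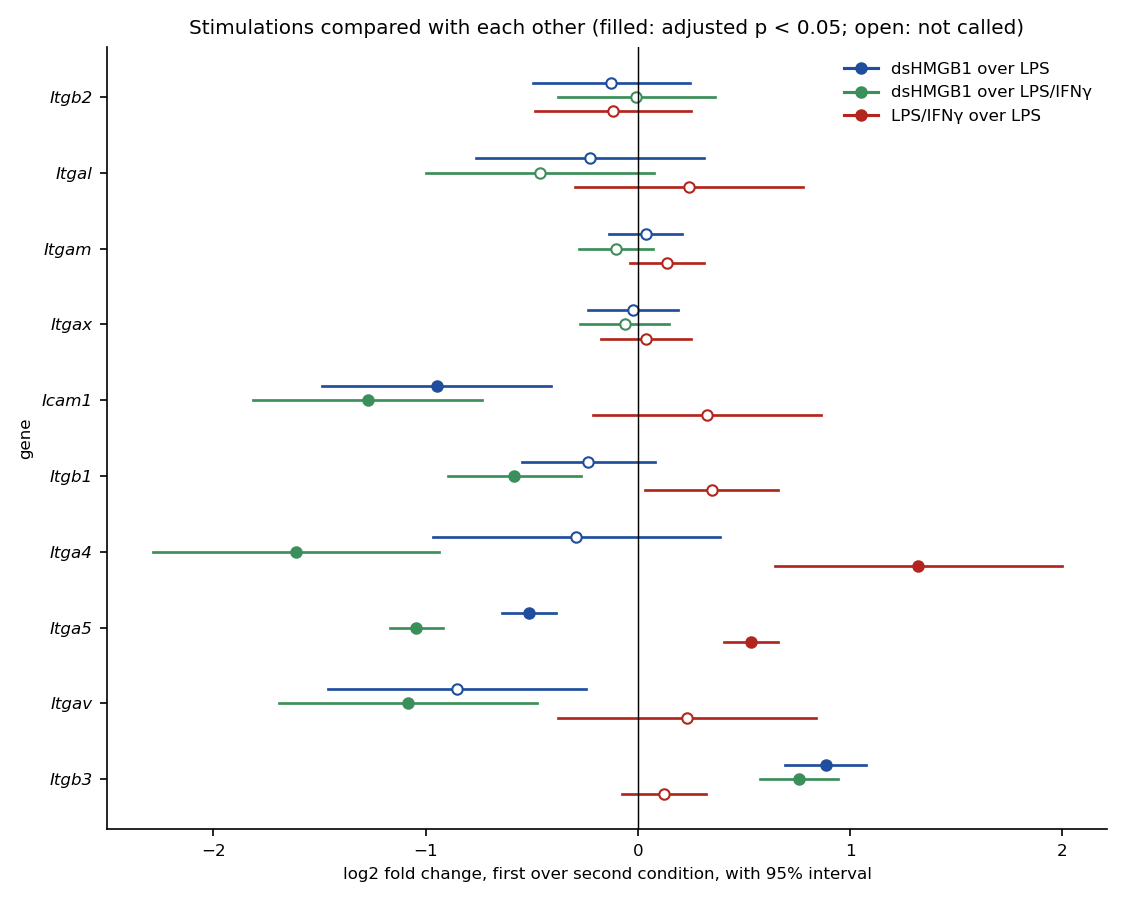
DESeq2 log2 fold change (x axis) of each of the 10 genes (y axis) in dsHMGB1 over LPS, dsHMGB1 over LPS/IFNγ and LPS/IFNγ over LPS; lines are 95% intervals and filled points passed edgeR's test at an adjusted p under 0.05. Itga5 is filled in all 3 comparisons (-0.51, -1.04 and 0.53), Itga4 lies at -1.61 and 1.32 in the last 2, and Itgb2, Itgam and Itgax are open in all.

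The 3 protein-coding genes whose log2 normalized counts were most like each gene's over the 15 libraries were found by Pearson's r, which here mostly reflects the 5 conditions and is given as a description. For Icam1 they were Nfkb1, which encodes an NF-kB subunit (r = 0.999, mean from 4688 in PBS to 93808 normalized counts in LPS/IFNγ), the phosphodiesterase gene Pde4b (0.999) and Nod1, a sensor of bacterial cell walls (0.998). For Itga5 they were the transglutaminase gene Tgm2 (0.999), Rmdn3 and Csrnp1 (both 0.998), for Itga4 Ppp1r12a and Mdm4 (both 0.996) and Heg1 (0.995), and for Itgal Akna and Dcbld2 (both 0.999) and Znfx1 (0.998). Itgav was most like Pkn2, Crk, an adaptor of adhesion signalling, and Mapk1ip1l (all 0.998), and Itgb1 was most like Fbxw11 (0.998), Gpc1 (0.997) and Creb5 (0.996). Itgb3 was most like the transcription factor gene Foxo3 (0.996, from 10093 in PBS to 595 in LPS), Kifap3 (0.995) and the inhibitory receptor gene Cd300a (0.993). Itgb2 followed the lysosomal mannosidase gene Man2b1 (0.980), Rsu1 (0.979) and Epb41l3 (0.974), whose pattern includes the low PBS replicate 3, Itgax followed Chd4, Nrip1 and Parg (0.976 to 0.973), and Itgam had the lowest values, with Myl12a, Zcchc10 and Igfbp3 (0.855 to 0.833). With TMM-scaled CPM, 16 of these 30 genes stayed among the top 3.

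Of 18 other integrin subunit genes, 17 passed the filter. Against PBS, 4 rose and 4 fell in dsHMGB1, 4 and 5 in LPS, and 4 and 6 in LPS/IFNγ, with 0 called in frHMGB1 by edgeR, where the median log2 fold change of the list was 0.02. Of all tested genes, 23.3%, 26.7% and 29.0% rose and 24.2%, 36.2% and 31.2% fell in these 3 stimulations, so that rises and falls of the 17 genes were near the shares of all genes or below them. In frHMGB1, 1.31% of all tested genes rose and 5.69% fell. Itgb8, a β chain that pairs with αV and binds latent TGF-β, rose from 47.3 ± 23.7 normalized counts in PBS to 1632 ± 701 with dsHMGB1, 4587 ± 352 with LPS and 1775 ± 76.5 with LPS/IFNγ (log2 fold changes 5.08 ± 0.34, 6.57 ± 0.34 and 5.20 ± 0.34). Itga1, a collagen receptor chain, rose by 2.62, 2.82 and 2.54 and Itga9 by 1.33, 1.49 and 0.62 on the same scale. Itgb5, another partner of αV, fell (-1.07, -1.02 and -1.54), from 28113 ± 2527 normalized counts in PBS to 13396 ± 860, 13864 ± 350 and 9684 ± 211. Itga6, a laminin receptor chain, fell as well (-1.38, -1.59 and -1.36), with a wide spread in PBS (2821 ± 1200). Of the β chains known to pair with αV, Itgb1 and Itgb8 rose and Itgb3 and Itgb5 fell in all 3 stimulations. Per kilobase, Itgb5 remained above Itgb8 throughout, for example at 3902 against 415 in LPS.

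Of 36 genes for other integrin ligands and counter-receptors in the table, 30 passed the filter, and 13 rose and 4 fell in dsHMGB1, 16 and 3 in LPS and 19 and 3 in LPS/IFNγ, with list medians of 0.57, 0.92 and 0.89 (-0.10, -0.21 and -0.13 over all tested genes). The rises stand beside 23.3%, 26.7% and 29.0% of all genes and the falls beside 24.2%, 36.2% and 31.2%. Without PBS replicate 3, 20 rose and 5 fell in LPS/IFNγ, when 33.3% of all genes were higher and 34.4% lower. Vcam1, the ligand of α4β1, rose from 959 ± 196 normalized counts in PBS to 16030 ± 290 with dsHMGB1, 27295 ± 593 with LPS and 27006 ± 540 with LPS/IFNγ (log2 fold changes 4.06 ± 0.13, 4.83 ± 0.13 and 4.81 ± 0.13). C3, whose fragment iC3b is bound by Mac-1 and αXβ2, rose by 5.58, 5.83 and 6.49, and Tnc, which encodes the matrix protein tenascin-C, by 3.14 in LPS and 5.14 in LPS/IFNγ, where it reached 21733 ± 499 normalized counts. F11r, which encodes the junction protein JAM-A, rose by 2.48 in dsHMGB1. Emilin1, a matrix ligand of α4 and α9 integrins, fell (-1.44, -1.84 and -0.79), and so did Adam15 (-0.61, -0.80 and -0.97). The PBS libraries of Adam15 spread widely, at 8851 ± 3182 normalized counts. In frHMGB1, 1 gene fell, Ccn2 (-0.95 ± 0.24, edgeR adjusted p = 0.0133), with a wide spread in PBS (1042 ± 447 normalized counts). Without PBS replicate 3 there were 3 rises and 6 falls. Beside them, 1.31% of all tested genes rose and 5.69% fell with all libraries, and 8.41% and 9.09% without PBS replicate 3.

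Of 35 genes listed around integrin activation and inactivation, not all of them direct switches of integrins, 33 passed. Among these, 15 rose and 9 fell in dsHMGB1 and 16 and 9 in LPS and in LPS/IFNγ. Beside them, 23.3%, 26.7% and 29.0% of all genes were higher and 24.2%, 36.2% and 31.2% lower, so the falls were near the share of all genes or below it. The rises included those of Filip1l (log2 fold changes 3.20, 3.88 and 3.23 in dsHMGB1, LPS and LPS/IFNγ) and of Sipa1l1, a Rap GTPase activating protein (2.13, 3.49 and 3.67). Their PBS libraries spread widely, at 672.5 ± 438 and 535.5 ± 300 normalized counts. The largest falls included Rapgef3, the Rap activator EPAC1 (-1.72 ± 0.18, -3.05 ± 0.20 and -3.77 ± 0.21), and Rassf5, the Rap1 effector RAPL (-1.44, -2.13 and -1.58). Fermt3, which encodes kindlin-3, a coactivator of β chains in blood cells, fell in LPS/IFNγ from 14831 ± 1769 to 4392 ± 104 normalized counts (-1.76 ± 0.09, edgeR adjusted p = 3.88e-10). In frHMGB1, 1 gene rose, Nrros (0.41 ± 0.08, edgeR adjusted p = 0.0136), against 6 rises and 2 falls without PBS replicate 3. Of all tested genes, 1.31% rose and 5.69% fell with all libraries, and 8.41% and 9.09% without PBS replicate 3.

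Of 48 genes for adaptors and kinases of focal adhesions and podosomes, 47 passed, and 20 rose and 9 fell in dsHMGB1, 21 and 10 in LPS and 18 and 11 in LPS/IFNγ, beside 23.3%, 26.7% and 29.0% of all genes higher and 24.2%, 36.2% and 31.2% lower. Without PBS replicate 3 12, 17 and 20 genes fell and 21, 22 and 19 rose, so that in LPS/IFNγ falls outnumbered rises, with 29.0%, 38.3% and 34.4% of all genes then lower. Src, the kinase of podosome formation, rose from 3244 ± 60.4 normalized counts in PBS to 22962 ± 841, 39595 ± 2066 and 42372 ± 135 (log2 fold changes 2.82, 3.61 and 3.71, each ± 0.06). The related kinase gene Lyn rose by 3.00 in LPS/IFNγ, the actin regulator gene Vasp by 3.37 in dsHMGB1 and 3.42 in LPS, and Zyx, which encodes zyxin, by 4.58 in LPS/IFNγ. Tns1, which encodes the integrin tail binder tensin 1, fell (-1.74, -3.32 and -3.44), as did Pstpip1 (-1.41, -1.13 and -1.22). In PBS, Tns1 and Pstpip1 had a wide spread, at 3630 ± 1557 and 4157 ± 1953 normalized counts. In frHMGB1, 3 genes rose, among them Vasp (0.71 ± 0.11) and Fgr (0.64 ± 0.13), with edgeR adjusted p of 0.00146 and 0.00419, and 0 fell. There were 7 rises and 5 falls without PBS replicate 3. Over all tested genes, 1.31% rose and 5.69% fell with all libraries, and 8.41% and 9.09% without PBS replicate 3.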

How the data were processed

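RNA was sequenced from 15 libraries of BMDMs in 5 conditions, grouped by the treatment in the sample labels. The authors made stranded mRNA libraries, sequenced paired-end reads, demultiplexed with CASAVA, aligned to GRCm38 with STAR and used DESeq2. The deposited table holds whole-number counts per gene not normalized. The program that counted reads, with its annotation, is not given in the sources used here. The table has 0 columns without a sample. GENCODE M21 gave symbols, types and exon lengths for 51661 of 51763 identifiers. Stranded libraries separate antisense genes only if the counting used strand, which is not given.

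Genes were tested with edgeR 4.0.16 (quasi-likelihood F test, TMM, filterByExpr with a minimum count of 10, all 15 libraries in one fit, no covariates) in R 4.3.3, and called at a Benjamini-Hochberg adjusted p under 0.05 over 16919 genes in 8 comparisons. Normalized counts, unshrunken log2 fold changes, SE and 95% intervals are from DESeq2 1.42.0. The code was tested on simulated data. No pair of replicates was a copy (chi-square per degree of freedom 4.34 to 775). Same-numbered libraries of different conditions were checked for shared deviations: 1 of 30 pairs had r over 0.1 (-0.39 to 0.38), so the numbers were not taken as pairs.

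The 10 genes, the pathway lists and the marker lists were chosen with earlier results of these data known. Named besides the 10 genes were, for each list and stimulation, the 3 largest called rises and falls among genes averaging 100 normalized counts or more, and for each of the 10 genes the 3 most correlated protein-coding genes with that mean. Some genes that this rule names are not reported here. Marker genes named were chosen after their values were seen. Alternatives were RLE normalization, DESeq2's test, other filters, protein-coding genes alone, 2 conditions alone, leaving out each library, and a replicate block. Protein sequences were not used here.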

Additional observations from a re-analysis of the deposited data

How the results depend on the processing

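Of 1040 values that alternatives gave for the 80 tested log2 fold changes, 965 kept direction and side of the threshold, 18 lost and 23 gained a call, and 34 turned direction, 0 of them of a called gene. The numbers of genes called for dsHMGB1, LPS and LPS/IFNγ against PBS and for dsHMGB1 against frHMGB1 and LPS/IFNγ stayed within 1.5 times. For frHMGB1 against PBS, 1 gene was called, 2 with RLE, DESeq2 or a filter of 1 CPM in 3 libraries, 0 over protein-coding genes or with these conditions alone, and 0 to 3 with a library left out. For dsHMGB1 against LPS, 3 were called, 5 with these alone and 2 to 6 with a library left out, and for LPS/IFNγ against LPS 2, 8 and 1 to 7, the highest each time without PBS replicate 3. The replicate block left every number of calls as it was: 1, 7, 7 and 7 against PBS, 7 for dsHMGB1 against frHMGB1, 3 and 6 for dsHMGB1 against LPS and LPS/IFNγ, and 2 for LPS/IFNγ against LPS. The cause of these moves was not tested.

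The log2 fold changes that turned were small. In frHMGB1 against PBS, Itgam was at -0.0011 with RLE, -0.0014 in DESeq2, -0.0495 with no filter, -0.0294 with 1 CPM, -0.0649 over protein-coding genes and -0.0223 alone (-0.0053 to 0.0647 with a library left out). Itgax was at -0.0259 with no filter, -0.0016 with 1 CPM and -0.0349 over protein-coding genes (-0.0921 to 0.1504), Itgav at -0.0096 with no filter and -0.0064 over protein-coding genes (-0.3145 to 0.36), and with a library left out Itga4 was at -0.1486 to 0.5249 and Itgb1 at -0.0401 to 0.333. In LPS against PBS, Itgam was at -0.0314 with 1 CPM and -0.0298 over protein-coding genes (-0.0004 to 0.0954). With a library left out, Itgb2 ranged from -0.1769 to 0.2347 in dsHMGB1, -0.0763 to 0.3052 in LPS and -0.2067 to 0.225 in LPS/IFNγ against PBS. In dsHMGB1 against LPS, Itgax was at -0.0229 with RLE and -0.0228 in DESeq2 (-0.0303 to 0.0305) and Itgam at -0.0199 to 0.1308. In dsHMGB1 against LPS/IFNγ, Itgb2 was at -0.0072 with RLE, -0.0069 in DESeq2, -0.0018 with no filter, -0.0022 with 1 CPM and -0.0031 over protein-coding genes (-0.0243 to 0.0572), and Itgax at -0.0651 to 0.0053. In LPS/IFNγ against LPS, Itgax was at -0.0053 to 0.0508. Of these, 3 had an adjusted p under 0.05, Itgav in frHMGB1 and Itgb2 in dsHMGB1 and LPS/IFNγ, all without PBS replicate 3.

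The order of conditions was kept for 7 of 10 genes with TMM-scaled CPM, and for 4 to 10 with a library left out, lowest without PBS replicate 3. Without division by length, Itgal made up 18.3% of the β2 partner chains in PBS and 57.6%, 61.3% and 64.2% in dsHMGB1, LPS and LPS/IFNγ.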

Other observations

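Selectins, selectin ligands and CD44, which bind leukocytes to vessel walls and matrix before integrins take over, formed a list of 12 genes, of which 11 passed the filter. Against PBS, 4 rose and 6 fell in dsHMGB1, 4 and 5 in LPS, and 4 and 4 in LPS/IFNγ by edgeR's test, beside 23.3%, 26.7% and 29.0% of all tested genes higher and 24.2%, 36.2% and 31.2% lower. Without PBS replicate 3, 6 rose and 5 fell in LPS/IFNγ, when 33.3% of all genes were higher and 34.4% lower. In frHMGB1, 0 were called with all libraries, beside 1.31% of all genes higher and 5.69% lower. There, 0 rose and 1 fell without PBS replicate 3, beside 8.41% and 9.09% of all genes. Cd44, the hyaluronan receptor, had 10439 ± 2333 normalized counts with PBS (mean ± SD of 3), 47574 ± 3043 with dsHMGB1, 115688 ± 3982 with LPS and 87360 ± 354 with LPS/IFNγ and rose in all 3 stimulations, so that LPS and not LPS/IFNγ held the highest mean. Sele, which encodes E-selectin, had 0 counts in PBS and means of 38.2, 243.5 and 489 normalized counts in dsHMGB1, LPS and LPS/IFNγ. Fut7 encodes a fucosyltransferase that completes selectin ligands. It had 458 ± 52.8 normalized counts with PBS and fell to 93.5 ± 7.41 with dsHMGB1 and 29.55 ± 9.49 with LPS. The lowest Fut7 mean was that of LPS/IFNγ, at 8.59 ± 8.22. Its log2 fold changes over PBS were -2.29 ± 0.22, -3.95 ± 0.27 and -5.68 ± 0.35 in that order. Gcnt1, which builds the core of these ligands, fell in all 3 stimulations too (-1.04, -1.44 and -0.71).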
